A study of Mus musculus with 8 samples.

Results

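The early growth response genes Egr1, Egr2, Egr3 and Egr4, their corepressor genes Nab1 and Nab2, the orphan nuclear receptor genes Nr4a1, Nr4a2 and Nr4a3, and the cytoskeleton-associated gene Arc were followed by name through RNA-seq and ribosome profiling of mouse pancreatic tumour cells. All 10 were found among the 55536 genes counted in each of the 8 libraries. The cells were KRPC-A, a PDAC-like line from genetically engineered C57BL/6 mouse tumours, where PDAC is pancreatic ductal adenocarcinoma. The groups were Gcn2 KO cells without leucine, Gcn2 KO cells in amino acid-replete medium, Gcn2 WT cells without leucine and Gcn2 WT cells in replete medium, each for 1 h, with 1 library per group in each assay. All cells, the replete ones included, had their medium changed 1 h before lysis. Whether each genotype was a clone or a pool of cells, and how Gcn2 was disrupted, is not stated in the sources used here.

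EGR proteins are zinc-finger transcription factors made from immediate early genes, a class switched on quickly by growth factor, stress or calcium signals without new protein synthesis, through serum response factor (SRF) with its ETS-family partners and through CREB. NAB1 and NAB2 bind EGR1, EGR2 and EGR3 and repress their activity, and Nab2 is itself known as an EGR-induced gene, which closes a negative feedback loop. NR4A1 (Nur77), NR4A2 (Nurr1) and NR4A3 (Nor1) are nuclear receptors that act without a known physiological ligand, so their activity is set largely by how much is made. Arc is best known as an activity-regulated gene of neurons. GCN2 is the kinase that senses uncharged transfer RNA and phosphorylates the initiation factor eIF2alpha.

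The stretches upstream of 3 members that were higher without leucine in Gcn2 KO cells, Egr2, Egr4 and Nr4a1, are shown first. They are the 250 bases before the RefSeq transcription start, given 5' to 3' on the gene's own strand from build GRCm38.p6, and for Egr2, which has 5 listed windows, the one whose start matches most exon starts in the annotation used for counting (its last base lies in an exon of another transcript). Capitals mark the core of the cAMP response element that CREB binds (CRE core, TGACG or its reverse complement CGTCA) and the CArG box that SRF binds.
Egr2, chr10:67537620-67537869, plus strand: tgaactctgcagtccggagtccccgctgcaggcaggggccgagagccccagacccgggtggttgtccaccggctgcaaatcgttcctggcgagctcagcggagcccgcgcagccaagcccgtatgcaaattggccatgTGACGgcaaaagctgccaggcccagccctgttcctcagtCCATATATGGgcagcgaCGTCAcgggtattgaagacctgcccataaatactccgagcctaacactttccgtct
Egr4, chr6:85513590-85513839, minus strand: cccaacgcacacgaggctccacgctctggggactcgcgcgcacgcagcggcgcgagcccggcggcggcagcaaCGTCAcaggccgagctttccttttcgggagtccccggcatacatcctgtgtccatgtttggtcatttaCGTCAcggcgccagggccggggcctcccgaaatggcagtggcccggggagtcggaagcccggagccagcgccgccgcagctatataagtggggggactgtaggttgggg
Nr4a1, chr15:101266596-101266845, plus strand: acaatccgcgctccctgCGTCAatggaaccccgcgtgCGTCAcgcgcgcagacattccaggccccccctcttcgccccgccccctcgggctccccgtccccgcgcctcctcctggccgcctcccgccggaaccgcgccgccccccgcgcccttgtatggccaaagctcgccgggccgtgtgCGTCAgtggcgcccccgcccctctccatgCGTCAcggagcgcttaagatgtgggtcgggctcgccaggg

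The CRE core was found 2 times before Egr2, 2 times before Egr4, 4 times before Nr4a1 and 1 time before Nab1, and 17.8% of all 32851 listed windows of the same length held it on either strand. The Egr2 stretch also held a CArG box 73 bases upstream of the start, a motif present in 1.47% of windows. The Nab1 window held 2 EGR sites (GCGTGGGCG or its reverse complement CGCCCACGC), starting 141 and 109 bases upstream, a motif present in 0.536% of windows. That window is not shown because 231 of its 250 bases lie in an exon of the annotation used for counting. Of the other members with a listed promoter, Nr4a2 and Nr4a3 held 4 CRE cores each (152 of the 250 Nr4a3 bases lie in an exon), and Nab2 held none of the motifs searched. No stretch of the 7 members with a listed promoter held the full CRE, TGACGTCA (1.55% of windows), or the NR4A monomer site NBRE, AAAGGTCA (1.34%), and the ETS site CCGGAA, in 3952 of the windows, was found before Nr4a1 and before no other of the 7. The CRE core is part of the full CRE, so those 2 searches overlap. A match is a run of letters and not evidence of binding, and a promoter was not listed for Egr3 and Arc and is not shown for Egr1.

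The genes lie on separate chromosomes, except that Nr4a1 and Arc share chromosome 15 and Egr2 and Nab2 share chromosome 10, each pair far apart. In GRCm38 with the Ensembl release 96 exons, Egr1 is on chromosome 18 with 4484 nt of exon, and Egr3 is on chromosome 14 from 70077203 to 70082614 with 4406 nt. Egr2 runs from 67535475 to 67542188 on chromosome 10 and Egr4 from 85511121 to 85513589 on chromosome 6. Nab1 runs from 52457294 to 52500679 on chromosome 1 and Nab2 from 127660918 to 127668568 on chromosome 10. Nr4a1 runs from 101254269 to 101274795 on chromosome 15, Nr4a2 from 57106830 to 57124003 on chromosome 2, Nr4a3 from 48045153 to 48086447 on chromosome 4, and Arc from 74669083 to 74672570 on chromosome 15. Counts cover all exons of a gene, untranslated regions included, without regard to strand.

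The RNA-seq libraries held 49136610 to 60680169 counted reads and the footprint libraries 2671491 to 9993211, fewest in WT leucine-free cells. Levels are CPM, a gene's count scaled to a fixed total of protein-coding reads after trimmed-mean scaling, so they are relative within a library. Intervals in parentheses are 95% and cover counting error only. With 1 library per group there is no spread between cultures, no p-value is given, and each ratio compares a pair of libraries. Eif2ak4, which encodes GCN2, had RNA levels of 16.9 and 13.9 CPM in KO leucine-free and KO replete cells, against 71.8 and 87.9 CPM in WT leucine-free and WT replete cells. Of 10 duct and epithelial markers 6 were measured in RNA, led by Sox9 and Krt18, while Epcam was at 0 in every RNA library. The summed RNA level of that list was 1119 and 493 CPM in KO leucine-free and KO replete cells, against 343 and 251 CPM in WT leucine-free and WT replete cells, and so moved with the early genes described here. Its part in their levels was not tested. Of 8 fibroblast and mesenchyme markers 5 were measured, and their summed RNA level was 1289 and 1265 CPM in the KO libraries, against 1681 and 1323 CPM in the WT libraries in the same order of media. None of 7 acinar, 6 immune and endothelial or 5 neuronal markers was measured, and the summed neuronal RNA level was at most 0.796 CPM. Mitochondrial ribosomal RNA took 33.6% and 33.3% of RNA reads in KO leucine-free and KO replete cells, against 30.5% and 24.7% in WT leucine-free and WT replete cells.

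Without leucine, Gcn2 KO cells had more RNA of Egr1, Egr2, Egr3, Egr4, Nr4a1 and Arc than in replete medium. WT cells had more of Egr1 and Egr2 by the same rule, a log2 ratio of at least 1 (2-fold) with an interval that leaves out 0. Nab1 and Nab2 differed by less than 2-fold between media in either genotype and either assay. Of the NR4A genes, Nr4a1 had a log2 ratio of 2.34 in KO cells and 0.18 in WT cells, and the Nr4a2 intervals included 0 in both genotypes. Genes averaging at least 30 counts per library within an assay are called measured, which held for 9 members in RNA and 7 in footprints. Among them 6 were higher in KO cells in RNA, where 1.76% of all 10809 measured genes were, and 2 were higher in WT cells, where 0.851% were. None was lower, where 1.42% of genes were lower in KO cells and 0.86% in WT cells. Egr4 and Arc reached the minimum only through the KO leucine-free library. Of the 7 members with at least 30 counts in every RNA library, 4 were higher in KO cells and 2 in WT cells.

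**Figure D1:**
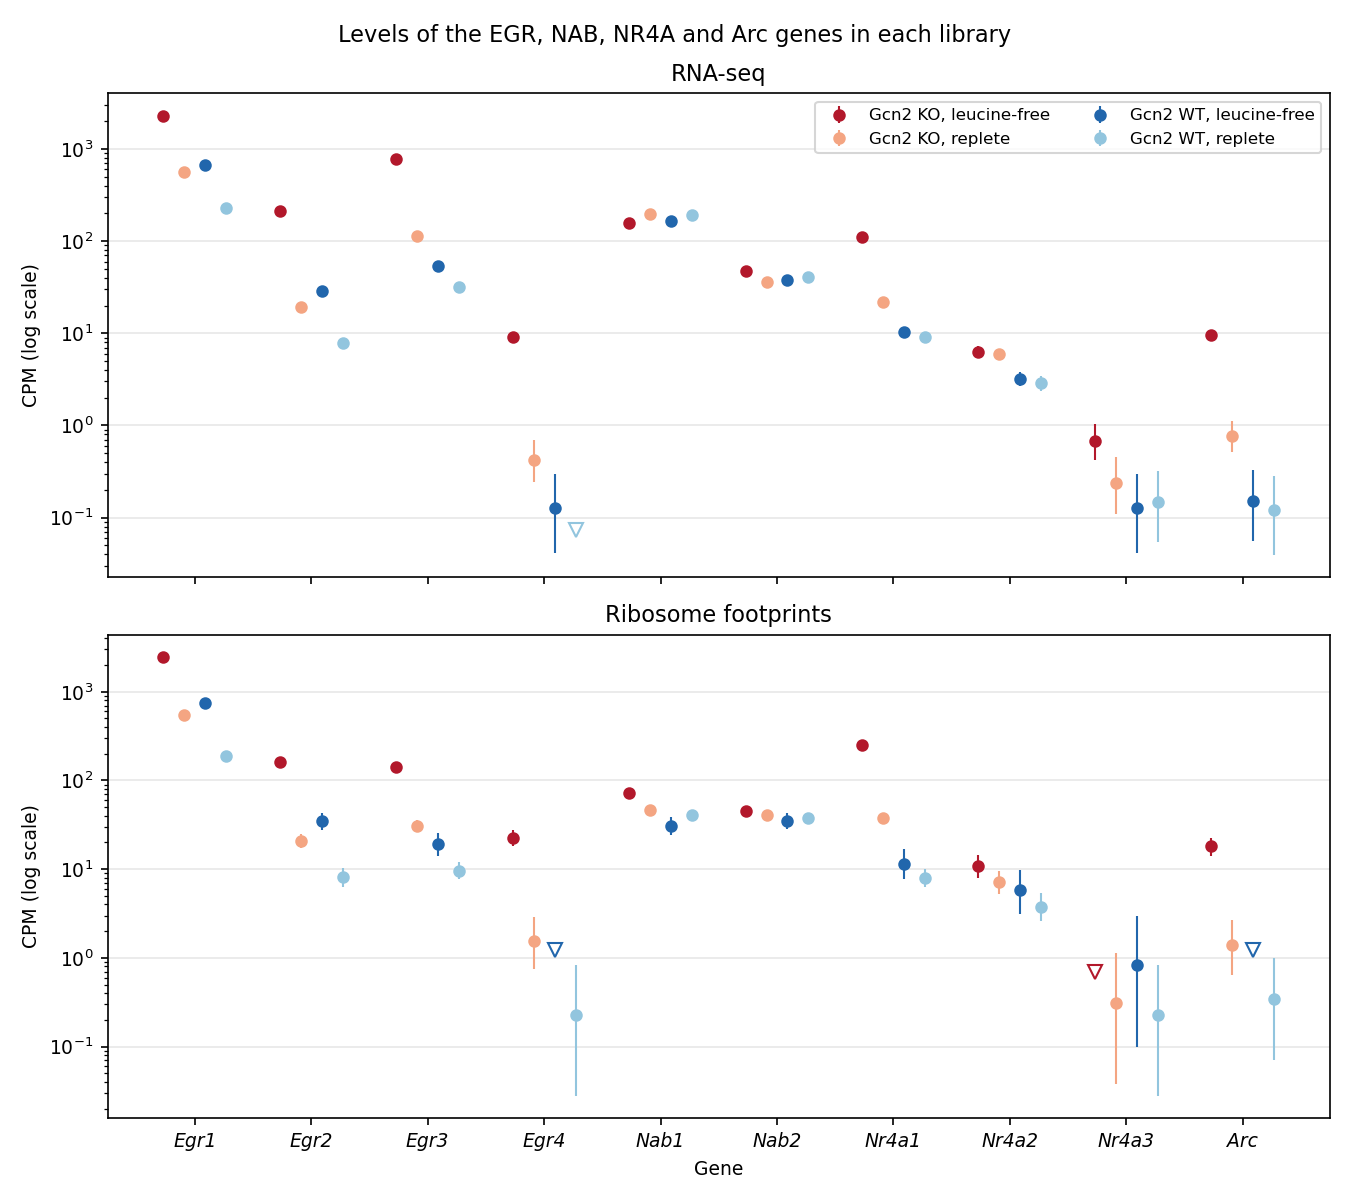
CPM (log scale) of each member in the 4 RNA-seq and the 4 footprint libraries, with 95% Poisson intervals of counting error. Open triangles mark a count of 0, drawn at the level of 3 counts. The KO leucine-free library is the highest for Egr1, Egr2, Egr3, Egr4, Nr4a1 and Arc in both assays, whereas Nab1 and Nab2 each differ little between the RNA libraries.

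Egr1, the founding EGR factor and the most abundant member per kb of exon in all 8 libraries, had 2291 and 563 CPM of RNA in KO leucine-free and KO replete cells, against 666 and 231 CPM in WT leucine-free and WT replete cells. The WT leucine-free level was thus close to the KO replete level, and the KO leucine-free level was the highest. Its leucine-free over replete log2 ratio was 2.02 (2.001 to 2.046) in KO cells and 1.53 (1.49 to 1.56) in WT cells. In KO leucine-free cells Egr1 ranked 17th of 10809 measured genes by RNA level per kb, with 511 CPM per kb. Its footprints followed, at 2443 and 550 CPM in KO leucine-free and KO replete cells and 750 and 190 CPM in WT leucine-free and WT replete cells. The footprint log2 ratio was 2.15 (2.10 to 2.21) in KO and 1.98 (1.89 to 2.08) in WT cells.

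Egr2 (Krox20), a factor known for hindbrain and Schwann cell development, had a larger RNA ratio than Egr1 in both genotypes. Its RNA stood at 210 and 19.4 CPM in KO leucine-free and KO replete cells, against 28.7 and 7.86 CPM in WT leucine-free and WT replete cells. The log2 ratio was 3.44 (3.33 to 3.55) in KO and 1.86 (1.69 to 2.05) in WT cells, which ranked it 9th and 11th of all measured genes. Footprints were 160 and 20.9 CPM in KO leucine-free and KO replete cells and 34.7 and 8.16 CPM in WT leucine-free and WT replete cells.

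Egr3, known from muscle spindles and from T cells, had RNA levels of 774 and 114 CPM in KO leucine-free and KO replete cells, against 54.1 and 31.7 CPM in WT leucine-free and WT replete cells. Both KO libraries therefore lay above both WT libraries, unlike Egr1 and Egr2, whose WT leucine-free level was above the KO replete one. The RNA log2 ratio was 2.76 (2.71 to 2.81) in KO cells and 0.77 (0.67 to 0.87) in WT cells, the WT value under 2-fold. Footprints gave 2.18 (1.95 to 2.43) in KO cells from counts of 611 and 199. In WT cells they gave 0.97 (0.43 to 1.51) from counts of 46 and 84 in libraries of very different depth, so whether the WT value reached 2-fold is not settled at this depth.

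Egr4, otherwise studied mainly in nerve and germ cells, was nearly absent outside KO leucine-free cells. Its RNA counts were 278 and 16 in KO leucine-free and KO replete cells, against 5 and 0 in WT leucine-free and WT replete cells. The KO log2 ratio was 4.37 (3.69 to 5.25), rank 3 of all measured genes. In WT cells the interval of the ratio of 5 counts to 0 included no difference, so none was detectable at this depth. Footprint counts were 98 and 10 in KO cells, a log2 ratio of 3.78 (2.92 to 4.97), and 0 and 2 in WT cells, which allow no ratio.

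Arc followed the same pattern at similar counts. Its RNA counts were 291 and 29 in KO leucine-free and KO replete cells, against 6 and 5 in WT leucine-free and WT replete cells. The RNA log2 ratio was 3.60 (3.07 to 4.23) in KO and 0.29 (-1.66 to 2.36) in WT cells. Footprint counts were 78 and 9 in KO cells, a log2 ratio of 3.60 (2.69 to 4.87), and 0 and 3 in WT cells. At 9.50 CPM of RNA in its highest library, against a neuronal marker sum of 0.392 CPM in that library, the Arc reads came with almost no reads of the neuronal list. A higher level in each cell and a larger share of cells with Arc RNA cannot be told apart in bulk samples, here or for the other members.

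**Figure D2:**
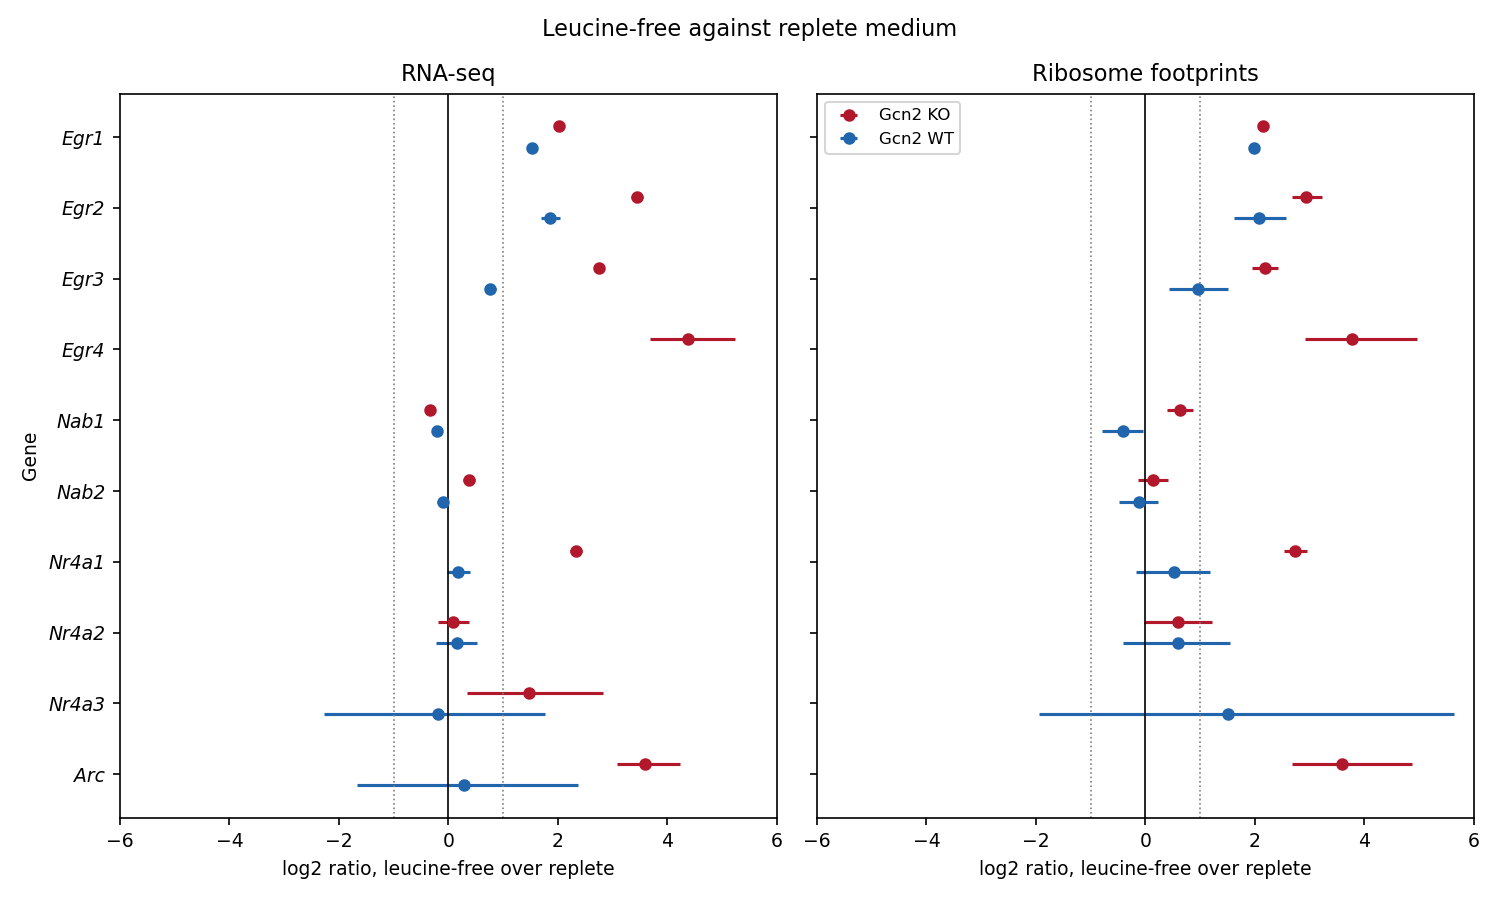
Log2 ratio of leucine-free over replete medium for each member in Gcn2 KO and Gcn2 WT cells, with 95% counting intervals, solid lines at 0 and dotted lines at 2-fold. Ratios with a count of 0 in either library are not drawn. KO points lie right of WT points for Egr1, Egr2, Egr3 and Nr4a1 in both assays, with nearly equal Egr1 footprint values of 2.15 and 1.98.

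Nr4a1, whose product acts in apoptosis and metabolism as well as early signalling, had 112 and 22.1 CPM of RNA in KO leucine-free and KO replete cells, against 10.4 and 9.16 CPM in WT leucine-free and WT replete cells. The 2 WT levels had overlapping intervals, and both KO levels lay above them. The RNA log2 ratio was 2.34 (2.23 to 2.45) in KO and 0.18 (-0.02 to 0.39) in WT cells. Footprints stood at 251 and 37.6 CPM in KO leucine-free and KO replete cells, against 11.6 and 8.04 CPM in WT leucine-free and WT replete cells, the WT leucine-free value from 28 counts. The footprint log2 ratio was 2.74 (2.54 to 2.95) in KO and 0.52 (-0.16 to 1.18) in WT cells.

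Nr4a2, best known for its part in dopaminergic neurons, had RNA levels of 6.27 and 5.89 CPM in KO leucine-free and KO replete cells, against 3.19 and 2.86 CPM in WT leucine-free and WT replete cells. The RNA leucine log2 ratios were 0.09 (-0.20 to 0.38) in KO and 0.16 (-0.22 to 0.53) in WT cells, so the RNA levels lay closer between media than between genotypes. Nr4a2 footprints had leucine log2 ratios of 0.59 (-0.02 to 1.22) in KO and 0.60 (-0.41 to 1.55) in WT cells, from 14 to 47 counts per library, and their intervals included 0. Thinning the footprint libraries to the smallest, by a random draw of reads, gave 1.15 (0.23 to 2.20) in KO cells, past 2-fold. The draw itself adds counting error. Nr4a3 had 21 and 9 RNA counts in KO leucine-free and KO replete cells, against 5 and 6 in WT leucine-free and WT replete cells. It had at most 2 footprint counts in any library and was not measured in either assay. Its KO RNA log2 ratio was 1.47 (0.33 to 2.83).

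The corepressor RNAs were steady beside these values. Nab1 had 156 and 196 CPM of RNA in KO leucine-free and KO replete cells, against 166 and 191 CPM in WT leucine-free and WT replete cells, lower without leucine by a small amount in both genotypes, at -0.33 (-0.38 to -0.28) in KO and -0.20 (-0.25 to -0.16) in WT cells on the log2 scale. Its footprints did not follow the RNA, with 71.7 and 46.0 CPM in KO leucine-free and KO replete cells, against 30.6 and 40.8 CPM in WT leucine-free and WT replete cells. Nab2 had 47.0 and 36.1 CPM of RNA in KO leucine-free and KO replete cells, against 38.3 and 41.1 CPM in WT leucine-free and WT replete cells. Its leucine log2 ratio was 0.38 (0.27 to 0.49) in KO and -0.10 (-0.2036 to -0.0015) in WT cells, both under 2-fold. Nab2 footprint ratios of 0.14 (-0.14 to 0.41) in KO and -0.12 (-0.48 to 0.22) in WT cells had intervals that included 0.

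In footprints 4 of the 7 measured members, Egr1, Egr2, Egr3 and Nr4a1, were higher without leucine in KO cells, where 1.47% of 9164 measured genes were. Egr1 and Egr2 were higher in WT cells, where 0.698% of genes were. No measured member was lower in footprints, where 0.666% of genes were lower in KO cells and 0.818% in WT cells. Over all 10 members the median RNA log2 ratio was 2.18 in KO cells, against 0.24 in WT cells, while the median of all measured genes was -0.01 in KO and 0.01 in WT cells.

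**Figure D3:**
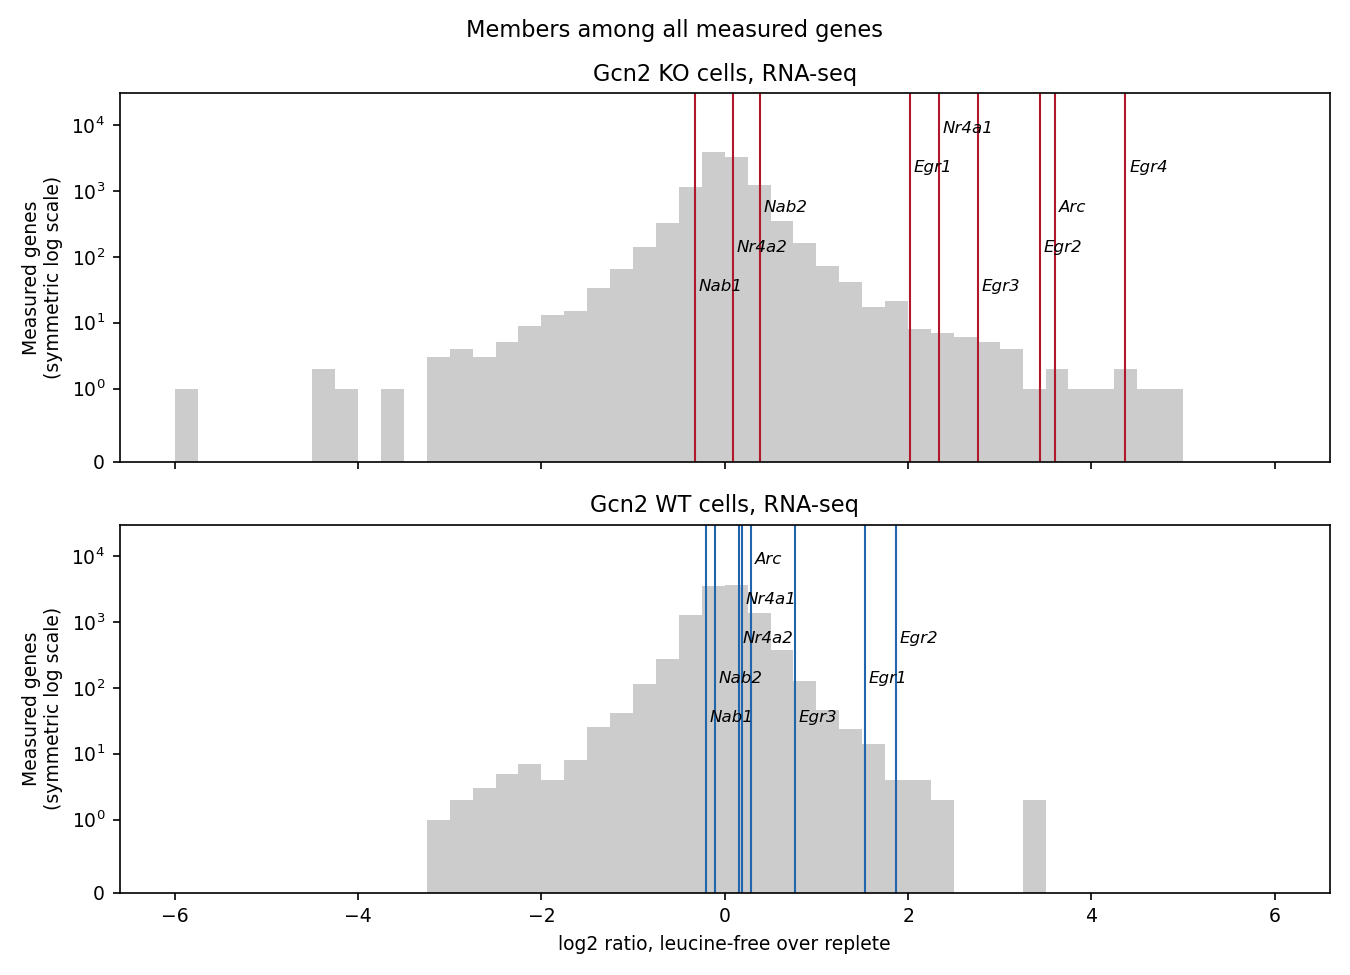
Number of measured genes (grey bars, symmetric log scale) by RNA log2 ratio of leucine-free over replete medium in Gcn2 KO and Gcn2 WT cells, with lines at the measured members. Egr4 is not drawn for WT cells because its replete count was 0. In KO cells 6 members lie at 2.02 or above, far into the right tail, while Nab1, Nab2 and Nr4a2 lie in the central peak.

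The difference between the leucine responses, KO minus WT, asks whether a member responded more strongly in Gcn2 KO cells. In RNA it was called higher for Arc at 3.31 (1.59 to 5.04), Nr4a1 at 2.15 (1.93 to 2.38), Egr3 at 1.99 (1.88 to 2.10) and Egr2 at 1.57 (1.36 to 1.78). These 4 of 9 measured members compare with 2.43% of all measured genes, and none was lower, where 2.29% were. Arc counts as measured only through the KO leucine-free library, and of the 7 members with at least 30 counts in every RNA library 3 were called. Egr4 was not called in RNA, at 0.89 (-3.35 to 5.13), a wide interval from WT counts of 5 and 0. For Egr1 the difference was 0.50 (0.46 to 0.54) in RNA and 0.17 (0.06 to 0.28) in footprints, both under 2-fold. In footprints it was called for Nr4a1 at 2.22 (1.56 to 2.88), Egr3 at 1.21 (0.65 to 1.78) and Nab1 at 1.05 (0.63 to 1.48), 3 of 7 measured members, against 3.54% of all measured genes, and none was lower, where 1.34% were. The Nab1 difference was 0.84 (0.28 to 1.41), under 2-fold, with footprint libraries thinned to the smallest. Egr2 footprints gave 0.86 (0.33 to 1.39), under 2-fold, and 1.10 (0.26 to 1.94) with the same thinning. Nr4a2 gave -0.07 (-0.52 to 0.39) in RNA, an interval that leaves out a 2-fold difference in either direction but covers counting error only. The difference was not tested across cultures.

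KO against WT cells were next compared in replete medium, in cultures that had also been given fresh medium for 1 h. In RNA 7 of 9 measured members were higher in KO cells, where 4.28% of all measured genes were (2.53% were lower). Of the 7 members with at least 30 counts in every RNA library 5 were higher, and the 2 others were Nab1 at 0.04 (-0.01 to 0.08) and Nab2 at -0.19 (-0.29 to -0.09). Egr1 had a log2 ratio of 1.28 (1.25 to 1.32), Egr2 1.30 (1.11 to 1.49), Egr3 1.85 (1.76 to 1.94) and Nr4a1 1.27 (1.09 to 1.45). Nr4a2 stood at 1.04 (0.71 to 1.38) and Arc at 2.54 (1.27 to 4.38). Egr4, with 16 counts against 0, was 5.80-fold higher with the WT library set at 3 counts. The counting interval of its log2 ratio began lower, at 2.07. In footprints 4 of 7 measured members were higher, against 1.95% of all measured genes (0.938% were lower). Nr4a1 led them at 2.21 (1.83 to 2.63), with Egr3 at 1.68 (1.31 to 2.07), Egr1 at 1.53 (1.45 to 1.62) and Egr2 at 1.35 (0.93 to 1.79).

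In leucine-free medium the KO over WT ratios were larger for Egr1, Egr2, Egr3 and Nr4a1 in both assays. In RNA 6 of 9 measured members were higher in KO cells, where 5.09% of all measured genes were (3.25% were lower). Of the 7 members with at least 30 counts in every RNA library 4 were higher, and the other calls were Egr4 and Arc, which count as measured only through the KO leucine-free library. Egr4 at 6.01 (4.93 to 7.80) and Arc at 5.84 (4.83 to 7.43) were at ranks 3 and 4 of 10809 genes, from WT counts of 5 and 6. Egr3 had 3.84 (3.78 to 3.90), Nr4a1 3.42 (3.28 to 3.58), Egr2 2.87 (2.78 to 2.97) and Egr1 1.78 (1.76 to 1.80), while Nr4a2 at 0.97 (0.64 to 1.31) was just under 2-fold. In footprints 5 of 7 were higher, against 5.04% of genes (2.2% were lower), with Nr4a1 second of 9164 genes at 4.42 (3.90 to 5.04). Egr4 and Arc had 98 and 78 footprint counts in KO cells and 0 each in WT cells. With the WT library set at 3 counts they were 18.3-fold and 14.6-fold higher in KO cells, which is not a lower limit. The counting intervals of their log2 ratios began lower, at 3.87 for Egr4 and 3.53 for Arc. Nr4a2 footprints stood at 0.89 (0.02 to 1.89), and at 1.09 (0.17 to 2.13), past 2-fold, with thinned libraries. Nab1 was the fifth member called, at 1.23 (0.86 to 1.62) in footprints, although its RNA log2 ratio was -0.09. The leucine and genotype comparisons share libraries, so their values are not independent of each other.

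**Figure D4:**
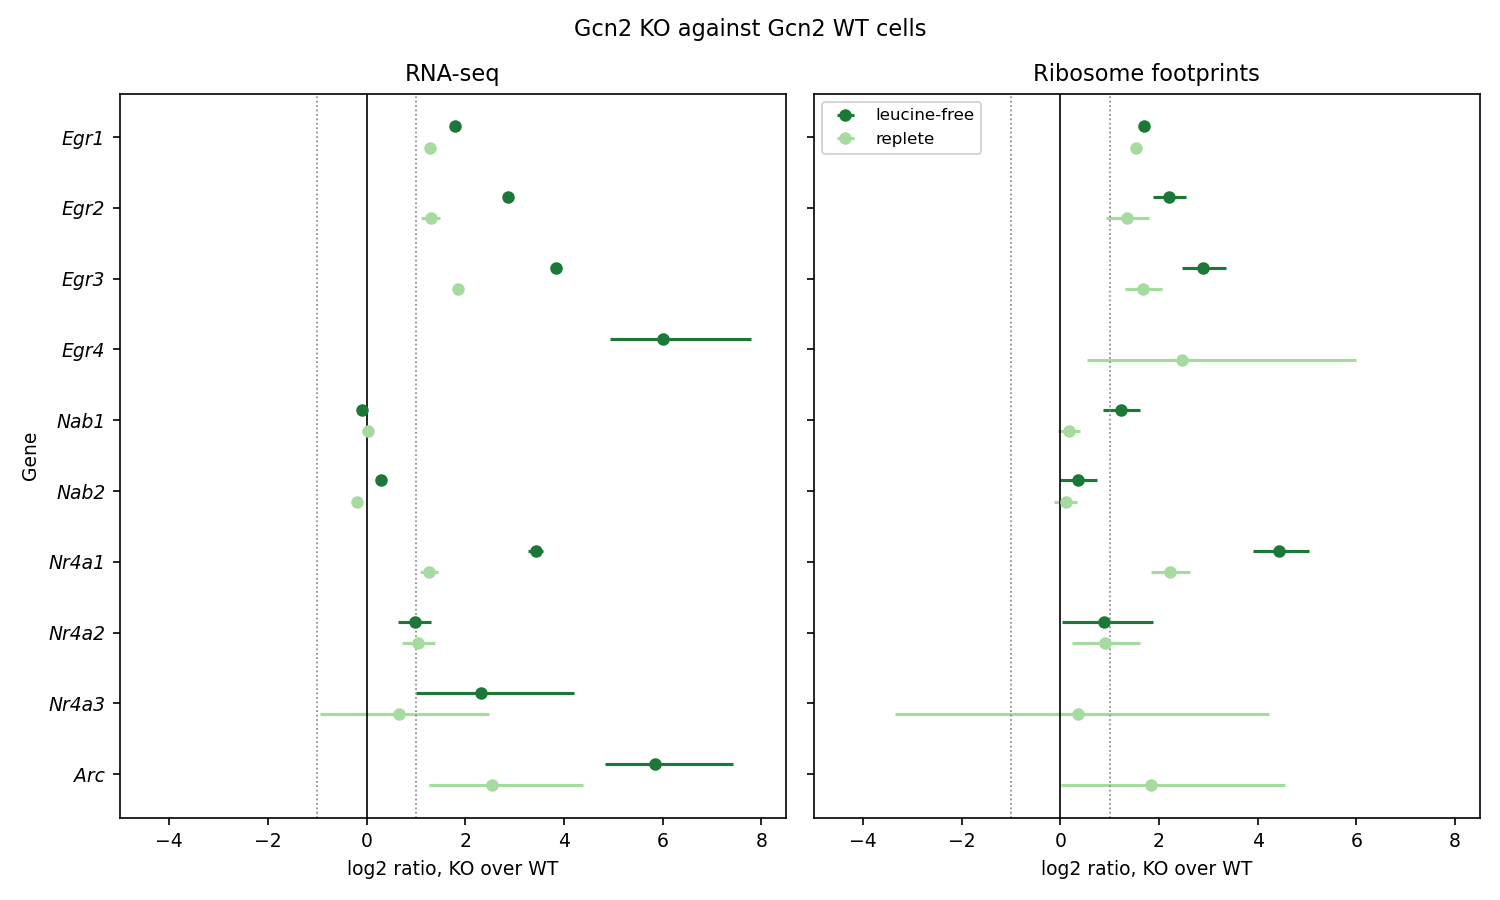
Log2 ratio of Gcn2 KO over Gcn2 WT cells for each member in leucine-free and replete medium, with 95% counting intervals, solid lines at 0 and dotted lines at 2-fold. Ratios with a count of 0 in either library are not drawn. Egr1, Egr2, Egr3 and Nr4a1 lie above 2-fold in both media and assays, and Nab2 lies near 0 throughout.

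Translation efficiency (TE), the footprint CPM over the RNA CPM of the same cells, asks whether footprints differed beyond the RNA. No measured member passed the 2-fold rule between media in KO cells (1.54% of 9092 genes were higher and 1.5% lower) or in WT cells (0.836% and 2.45%), nor between genotypes in replete medium (0.495% and 0.913%). Egr1 TE was 1.07 (1.04 to 1.09) and 0.975 (0.941 to 1.01) in KO leucine-free and KO replete cells, against 1.13 (1.07 to 1.18) and 0.820 (0.778 to 0.864) in WT leucine-free and WT replete cells. Its leucine log2 difference in TE was 0.13 (0.07 to 0.19) in KO and 0.46 (0.36 to 0.56) in WT cells. Egr2 and Egr3 had lower TE without leucine in KO cells by less than 2-fold, at -0.50 (-0.79 to -0.21) and -0.57 (-0.81 to -0.34).

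Egr3 had the lowest TE of the EGR genes in each library in which they had counts in both assays. It was 0.182 (0.168 to 0.198) in KO leucine-free cells, a value above that of 3.27% of measured genes, and 0.271, 0.351 and 0.304 in KO replete, WT leucine-free and WT replete cells. TE was formed over all exons, so RNA reads in untranslated regions lower it between genes. Nab1 TE was 0.458 (0.407 to 0.514) and 0.234 (0.208 to 0.263) in KO leucine-free and KO replete cells, against 0.184 (0.144 to 0.231) and 0.213 (0.191 to 0.237) in WT leucine-free and WT replete cells. KO leucine-free cells thus stood apart for Nab1. KO against WT in leucine-free medium gave a TE log2 difference of 1.31 (0.95 to 1.68) for Nab1 and 1.00 (0.44 to 1.56) for Nr4a1, the 2 of 7 members that passed where 4.47% of genes were higher and 1.66% lower. Nr4a1 was at the threshold and was under it with 4 alternatives, at 0.95 to 0.98. In replete medium its TE log2 difference was 0.95 (0.52 to 1.37). Without leucine, TE was lower in KO than in WT cells for Egr3 at -0.95 (-1.39 to -0.52) and Egr2 at -0.67 (-1.01 to -0.33), both under 2-fold. Egr1 stood at -0.08 (-0.15 to -0.004), and the Nab2 and Nr4a2 intervals included 0.

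Levels per kb of exon were used to set genes beside each other within a library. The length covers all exons, untranslated regions included, so footprint levels per kb between genes also depend on each gene's untranslated share. The summed EGR RNA was 753 and 158 CPM per kb in KO leucine-free and KO replete cells, against 169 and 61.1 CPM per kb in WT leucine-free and WT replete cells. The summed NAB RNA was 54.1 and 60.1 CPM per kb in the KO libraries, against 53.6 and 60.7 CPM per kb in the WT libraries, in the same order of media. The ratio of EGR to NAB RNA was therefore 13.9 and 2.62 in KO leucine-free and KO replete cells, against 3.16 and 1.01 in WT leucine-free and WT replete cells. In footprints it was 19.3 and 5.41 in the KO libraries, against 9.37 and 2.05 in the WT libraries.

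The make-up of the EGR pool also differed. Egr1 gave 67.9% of the summed EGR RNA per kb in KO leucine-free and 79.8% in KO replete cells, against 87.7% and 84.4% in WT leucine-free and WT replete cells. Egr3 gave 23.3% and 16.5% in the KO libraries, against 7.25% and 11.8% in the WT libraries in the same order. In footprints the Egr3 share was 5.05% and 5.16% in the KO libraries, against 2.37% and 4.66% in the WT libraries, so the KO libraries were nearly equal in footprints, and the WT leucine-free library was the lowest in both assays. Nr4a1 made up 95% and 80.8% of summed NR4A RNA per kb in KO leucine-free and KO replete cells, against 78.6% and 78.2% in WT leucine-free and WT replete cells. Nr4a2 gave most of the rest, with 4.61% and 18.6% in the KO libraries and 20.8% and 21.1% in the WT libraries.

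**Figure D5:**
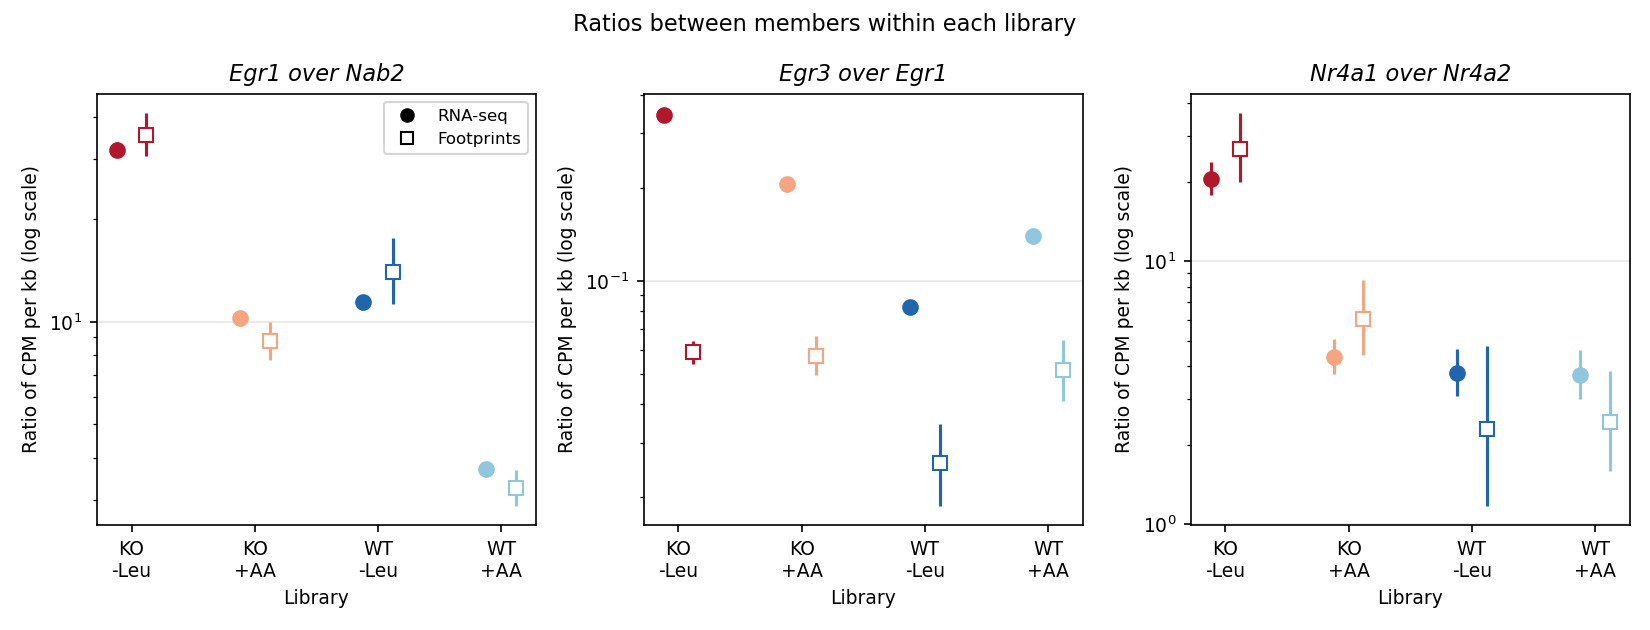
Ratios of CPM per kb between pairs of members within each library (log scales) for RNA-seq (filled circles) and footprints (open squares), with 95% counting intervals. Egr1 over Nab2 in RNA was 32.0 in KO leucine-free cells and 3.69 in WT replete cells, and Nr4a1 over Nr4a2 in RNA was 20.6 in KO leucine-free cells and between 3.71 and 4.34 in the other libraries.

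In the order of RNA levels per kb, Egr1 came first in all 4 RNA libraries. Egr3 came second in KO leucine-free cells, at 176 CPM per kb, ahead of Egr2 at 61.9, Nab1 at 38.1 and Nr4a1 at 31.8. In KO replete cells the order was Egr1, Nab1 at 47.9, Egr3 at 26.0 and Nab2 at 12.3, and in both WT libraries it was Egr1, Nab1, Nab2 and Egr3. In WT leucine-free cells Nab2 at 13.0 and Egr3 at 12.3 CPM per kb were close neighbours with overlapping intervals. Nr4a2, Egr4, Arc and Nr4a3 were the 4 lowest members in every RNA library, with Nr4a2 at most 1.54 CPM per kb.

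The profile of a gene over the 4 RNA libraries, as log2 CPM centred on its mean, was compared with that of Egr1, Egr2 and Nr4a1 by Euclidean distance over 10809 genes. The 5 nearest to Egr1 outside the members were Ccn2, Slitrk2, Tcim, Ier3 and Ccn1, at distances of 0.29 to 0.65, where the median gene was at 2.38. The nearest to Egr2 were Zfp36, Ccn1, Tcim, Fos and Jun, at 0.54 to 0.91. The nearest to Nr4a1 were Ptgs2, Ier2, Dusp2, Dusp5 and Jun, at 0.31 to 0.72. Egr3 was nearer to Nr4a1, at 0.71, than to Egr2 at 1.19 or Egr1 at 1.51. In footprints the 5 nearest were Tcim, Atf3, Fosb, Ier2 and Junb for Egr1, Fosb, Atf3, Zfp36, Tcim and Ier3 for Egr2, and Btg2, Dusp2, Ptgs2, Jun and Fosb for Nr4a1. These distances rest on 4 libraries and are descriptions.

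Genes upstream, downstream and alongside were counted for comparison. Of 17 genes of the RAS-ERK cascade, which activates early genes, none passed in RNA or footprints between media in either genotype. Their RNA median log2 ratio was 0.04 in KO and -0.10 in WT cells. In RNA, KO over WT in replete medium, 1 passed as lower, where 2.53% of all measured genes were. It was the kinase gene Araf at -1.13 (-1.24 to -1.02). In footprints, KO over WT without leucine, 2 passed as higher, Mapk3 (ERK1) at 1.20 (0.73 to 1.70) and Rps6ka4 (MSK2) at 1.09 (0.80 to 1.39), where 5.04% of all measured genes were higher. In the footprint difference of leucine responses, KO minus WT, 2 passed as higher, Hras at 1.48 (1.13 to 1.83) and Rps6ka4 at 1.09 (0.74 to 1.43), where 3.54% of all measured genes were higher. Of 17 factors that act at early promoters, namely SRF, its ETS and MRTF partners, CREB with its coactivators and MEF2, none of the 17 measured in RNA passed in any comparison. Their RNA median was -0.09 in KO and -0.14 in WT cells between media. In footprints 15 were measured and none passed between media. Srf passed as higher in KO over WT without leucine at 1.43 (1.08 to 1.82), where 5.04% of all measured genes were higher. The CREB coactivator gene Crtc3 passed as higher in the footprint difference of responses at 1.04 (0.40 to 1.68), where 3.54% of all measured genes were higher. Crtc3 also passed as higher in TE between media in KO cells, at 1.01 (0.62 to 1.40), where 1.54% of genes were. Its TE passed as higher in KO over WT without leucine too, at 1.05 (0.50 to 1.59), where 4.47% of genes were. The retinoid X receptor genes, partners of NR4A1 and NR4A2, had 2 of 3 measured and none passed in RNA or footprints.

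Of 14 genes known as EGR targets, 13 were measured in RNA and 11 in footprints. Between media in KO cells 3 were higher in RNA, where 1.76% of all measured genes were, and none lower, namely Cdkn1a, the cell cycle inhibitor p21, at 1.47 (1.27 to 1.68), Thbs1, a matrix glycoprotein, at 1.23 (1.19 to 1.27) and Id3, an inhibitor of helix-loop-helix factors, at 1.12 (1.05 to 1.19). In WT cells none was higher and Tgfb1 was lower at -1.05 (-1.71 to -0.43), where 0.86% of genes were lower. None passed in footprints between media. The list's RNA median was 0.26 in KO and 0.21 in WT cells. In KO over WT without leucine, 4 were higher in RNA, where 5.09% of genes were, namely Plaur at 1.51, Tgfb1 at 1.24, Pdgfb at 1.21 and Id3 at 1.06. In replete medium 1 was higher, where 4.28% of genes were, namely Icam1 at 2.10 (1.58 to 2.69). Icam1 was also the 1 gene called lower in the RNA difference of responses, at -1.29 (-1.99 to -0.58), where 2.29% of genes were lower. In footprints, KO over WT, 2 were higher without leucine, where 5.04% of genes were, namely Tgfb1 at 1.25 and Plaur at 1.06. In replete medium 1 was, where 1.95% of genes were, namely Tgfb1 at 1.51. In TE, Tgfb1 passed as higher between media in WT cells at 1.93 (0.77 to 3.09), where 0.836% of genes were. Id3 passed as lower in TE in KO over WT without leucine at -1.05 (-1.23 to -0.87), where 1.66% of genes were.

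Of 24 other immediate early genes, all measured in both assays, 18 were higher without leucine in KO cells and 8 in WT cells in RNA, where 1.76% and 0.851% of all measured genes were, with medians of 2.24 and 0.62. In footprints 17 in KO and 8 in WT cells were higher, where 1.47% and 0.698% of genes were, with medians of 2.09 and 0.78. In KO RNA the largest were Btg2 at 4.67, Fos at 4.11, Atf3 at 3.92 and Zfp36 at 3.58, so that Egr4 and Arc, at 4.37 and 3.60, lay among them and Egr1 at 2.02 lay below their median. In WT RNA the largest were Fos at 2.17, Atf3 at 1.603, Zfp36 at 1.45 and Ccn2 at 1.41, next to 1.86 for Egr2 and 1.53 for Egr1. No member of this list was called lower in any comparison in RNA or footprints. In TE, KO over WT without leucine, 4 were lower, where 1.66% of genes were, and none higher, with a list median of -0.50. Between media in KO cells 2 were lower in TE, where 1.5% of genes were, and none higher.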

How the data were processed

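Messenger RNA was measured by RNA-seq and ribosome-protected fragments by ribosome profiling, in 4 libraries each. Lysis was with 100 µg/mL cycloheximide and footprints were made with ribonuclease I, per the labels. Tools named in the submitters' processing notes are STAR, cutadapt, Subread and featureCounts, with build GRCm38. The authors deposited unnormalized read counts for every gene, made with featureCounts 1.6.4 on Ensembl release 96 exons with no strand or multiple-mapping option, per the file headers. With those defaults a read that fits several loci or genes adds to no gene.

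From the deposited counts, symbols were joined for 55450 of 55536 genes and gene class from RefSeq (GRCm38.p6) by symbol or unique synonym, which gave 21409 protein-coding genes. Libraries were scaled within each assay by trimmed mean of M-values (TMM) over protein-coding genes (edgeR 4.0.16 in R 4.3.3), and CPM were computed from the scaled totals. Genes with a mean count of at least 30 were measured, 10809 in RNA, 9164 in footprints and 9092 in both. Log2 ratios used a prior count of 0.5. Intervals are 95%, exact Poisson for CPM, exact conditional binomial (Clopper-Pearson) for ratios of 2 counts, and Wald for TE and KO minus WT differences. They cover counting error only, as do the folds with a library set at 3 counts, because no molecular identifiers separate PCR copies. A gene was called at a log2 ratio of at least 1 in size with an interval that leaves out 0. No test across cultures was made. The procedure was run on simulated counts with Poisson error only, which hold no spread between cultures and so cannot test the calls against it. Python 3.11.15, numpy 2.4.6, pandas 2.3.3, scipy 1.17.1, statsmodels 0.14.6 and matplotlib 3.10.9 were used.

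The members and lists were chosen with earlier results of these data known. All members were named, and of each list up to 4 called genes with the largest ratios. Alternatives were DESeq2 1.42.0 size factors, total counts, mean counts of at least 10, at least 100 or no filter, a prior count of 2, removal of a length trend, and, chosen after seeing the data, footprint libraries thinned to the smallest by a random draw of reads. Promoter sequences are from RefSeq, GRCm38.p6, with 7 of 10 members matched.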

Additional observations from a re-analysis of the deposited data

Results flagged for a closer look

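The corepressor genes were flagged because their leucine ratios had opposite signs in KO and WT cells with intervals that leave out 0 on both sides. Nab2 RNA had a leucine-free over replete log2 ratio of 0.38 in Gcn2 KO cells and -0.10 in Gcn2 WT cells. Nab1 footprints had 0.64 (0.41 to 0.87) in KO cells and -0.41 (-0.80 to -0.05) in WT cells, while Nab1 RNA had -0.33 and -0.20. A ratio here sets 1 library against another, and the difference was not tested across cultures. The WT Nab1 footprint value rests on 74 counts in the WT leucine-free library and its interval included 0 under 2 alternatives, at -0.17 (-0.64 to 0.29) with the footprint libraries thinned to the smallest and at -0.33 (-0.71 to 0.04) with total counts, so the opposite signs are not distinguishable from counting error under them.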

How the results depend on the processing

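Counts of called members and the members' medians were recomputed under each alternative, and 269 values were classed as close to those reported while 10 moved. The 269 include counts that fell under a stricter filter. With a minimum mean count of 100, 4 of 7 members in place of 6 of 9 were higher in RNA between media in KO cells. The same counts held for KO against WT without leucine, and 5 of 7 in place of 7 of 9 were higher in replete medium. In footprints, 5 members in place of 3 had the larger KO minus WT response under a minimum mean count of 10 or no filter, the added ones being Egr4 and Arc with WT counts of 0 to 3. With a prior count of 2 these footprint differences had intervals that included 0, at 4.29 (-0.19 to 8.76) for Egr4 and 4.34 (-0.04 to 8.73) for Arc. In TE, 1 member was higher without leucine in KO cells with total counts, Nab1 at 1.06. For TE, KO against WT in leucine-free medium, 1 member in place of 2 was higher with DESeq2 size factors, with a prior count of 2, with the length trend removed and with thinned footprints, since Nr4a1 stood at 0.95 to 0.98. With no filter 1 was lower, Nr4a3, from 0 footprint counts in KO and 2 in WT cells. With a prior count of 2 the RNA median over the members was 2.44 (2.59 as set) for KO against WT without leucine and 1.53 (1.23 as set) for the difference of responses. Thinning turned Arc footprints, KO against WT in replete medium, with 9 and 3 counts, to a log2 ratio of -0.046. Egr3 footprints in WT cells passed 2-fold with DESeq2 size factors (1.01), total counts (1.06) and thinning (1.06). Thinned Nr4a2 TE was higher without leucine in KO cells by 1.06. The thinning was chosen after seeing the data, and its random draw of reads adds counting error. The cause of these changes was not tested. No paired analysis was possible because each group holds 1 library, and for the same reason no library could be left out. Depth limits the WT footprint values of Egr4, Arc and Nr4a3, at 0 to 3 counts.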
